A study of Drosophila melanogaster with 12 samples.

Results

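*Gpdh1; Ldh* double heterozygotes were compared with *Gpdh1* heterozygotes, the control genotypes of the double and the *Gpdh1* mutants. Members were chosen by label alone: the 3 libraries labelled double heterozygote and the 3 labelled *Gpdh1* heterozygote, 6 of the 12 libraries of the series. The *Gpdh1* heterozygotes are labelled w[1118]; Gpdh1[12]/+, and the double heterozygotes carry, on the same w[1118] and Gpdh1[12]/+ genotype, an Ldh[16]/+ allele. The remaining 6 libraries, used only as a second pair of genotypes, are *Gpdh1* mutants (Gpdh1[12]/Gpdh1[14]) and double mutants (Gpdh1[12]/Gpdh1[14]; Ldh[16]/Ldh[17]), also with w[1118]. Every group therefore carried at least 1 Gpdh1[12] allele, and none was wild type at *Gpdh1*. RNA came from pools of whole larvae kept at 25 °C for 60 hours after egg collection, so a gene's level is an average over all tissues and animals of a pool. No label names the parents of the crosses. The mutant *Ldh* allele, the rest of the chromosome that carries it and the remaining cross background therefore cannot be told apart in this contrast.

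*Ldh* encodes lactate dehydrogenase, which reduces pyruvate to lactate, and *Gpdh1* encodes glycerol-3-phosphate dehydrogenase, which reduces dihydroxyacetone phosphate. Both reactions return cytosolic NADH to NAD+ and so keep glycolysis running in growing larvae. Larval growth is also divided by moults. At each moult a pulse of the steroid ecdysone starts an ordered series of transcription factors, and epidermal and tracheal cells transcribe cuticle protein, chitin and tanning genes in short waves to build the next cuticle.

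Each library held between 22339930 and 25384382 counts assigned to genes, and levels are given in CPM, a gene's count relative to its library's total after scaling by the trimmed mean of M values (TMM). The label on every sample is mid-L3 larvae, while the study's own figure legend gives an earlier instar. *Lsp1beta*, a larval serum protein made by the fat body, was at 4723, 2020 and 2649 CPM in the *Gpdh1* heterozygotes and at 2065, 397 and 2582 in the double heterozygotes. Of the late third-instar genes, *Lsp2* was at 0 to 0.453 CPM in these 6 libraries. The glue genes *Sgs1*, *Sgs3*, *Sgs5*, *Sgs7* and *Sgs8* were at 0 to 0.18 CPM. Other members of the glue list were detected, and 5 of its 11 genes were tested. The list summed to 72.4 to 97.5 CPM in the *Gpdh1* heterozygotes and 49.3 to 56.9 CPM in the double heterozygotes. Libraries of a group varied more among the double heterozygotes (common biological coefficient of variation 0.212) than among the *Gpdh1* heterozygotes (0.141). Replicate 2 of the double heterozygotes stood apart from replicates 1 and 3 in cuticle and immune genes, and results are therefore also given without it.

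Of 10532 genes tested, 859 (8.16%) passed an adjusted p of 0.05 (edgeR quasi-likelihood test, Benjamini-Hochberg). Genes also past a log2 fold change of 1, here called, numbered 75 higher (0.712%) and 237 lower (2.25%) in the double heterozygotes, or 2.96% in either direction. In all 312 called genes the 2 groups did not overlap, against 40.7% of all genes tested. Calling on the same 6 libraries favours this, so it is not added support. Since whole larvae were sampled, fewer cells of a type and less RNA per cell cannot be told apart in any difference below. The count of genes past the adjusted p fell to 23 without *Gpdh1* heterozygote replicate 3, to 17 without double heterozygote replicate 1 and to 167 without *Gpdh1* heterozygote replicate 2, and to 461 without *Gpdh1* heterozygote replicate 1, and it was 730 (6.88%) without double heterozygote replicate 2. The fold changes moved less than the calls. Of the 75 higher and 237 lower genes, 63 and 208 stayed past the fold limit with any 1 library left out. All kept their direction, but with groups that do not overlap 1 omitted library could not reverse it. Apart from 13 genes described below, each call was lost when some 1 library was left out.

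**Figure D1:**
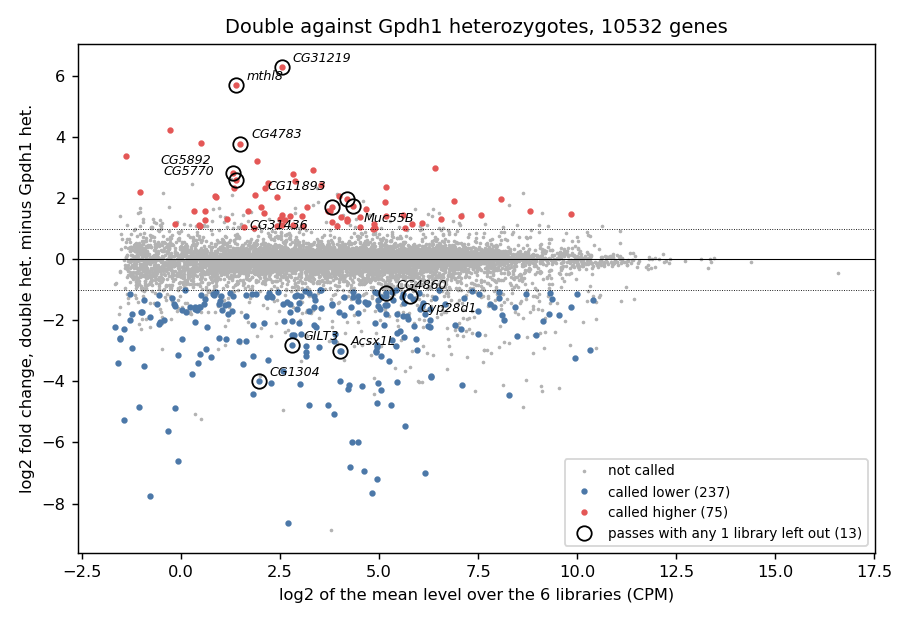
Log2 fold change of the double over the *Gpdh1* heterozygotes (vertical axis) against the log2 of the mean level in CPM over the 6 libraries (horizontal axis) for the 10532 genes tested. Dotted lines mark a log2 fold change of 1 in either direction, 75 red points are called higher, 237 blue points are called lower, and 13 circled genes passed with any 1 library left out.

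*Ldh* itself differed little. It lies on chromosome arm 3L from 6259105 to 6262694 (annotation BDGP6.54, minus strand) and was at 511, 495 and 521 CPM in the *Gpdh1* heterozygotes and at 445, 439 and 457 CPM in the double heterozygotes. The groups did not overlap, and the double heterozygote mean was 87.9% of the other. The log2 fold change of -0.21 (standard error, SE, 0.0628) did not pass the test (adjusted p = 0.0891, edgeR). In the mutants, by contrast, the level went from 399 ± 18.4 CPM (SD, n = 3) with wild-type *Ldh* to 3.93 ± 0.322 (SD, n = 3) in double mutants, in which *Ldh* was at 0.985% of the *Gpdh1* mutant level. The label of 1 mutant *Ldh* allele thus goes with a much smaller difference in transcript than the label of 2. *Gpdh1*, with the same labelled genotype in both groups, was at 520, 517 and 412 CPM and at 497, 445 and 506 CPM (log2 fold change -0.02, adjusted p = 0.925). Its annotated span overlaps that of a noncoding RNA on the other strand, and the counting's use of strand is not given in the sources used here.

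The tested neighbour of *Ldh* with the largest fold change was *Best2*, which encodes a chloride channel of the bestrophin family. It ends 2440 bases before the *Ldh* annotation, on the same strand of 3L (6245933 to 6256665). *Best2* was at 62.8, 62.4 and 59.2 CPM in the *Gpdh1* heterozygotes and at 33.6, 24.1 and 41.4 CPM in the double heterozygotes. Every double heterozygote library was below every *Gpdh1* heterozygote library, with a log2 fold change of -0.92 (SE 0.19, adjusted p = 0.0407) and an adjusted p of 0.0298 without replicate 2. *Best2* passed in 2 of the 6 tests with 1 library left out. Its double heterozygote levels were in the order replicate 3 above 1 above 2, which 19.7% of all genes had. In the second pair it was at 46.7 ± 0.328 CPM in *Gpdh1* mutants and 25.6 ± 0.238 CPM among the double mutants (SD, n = 3 each), with -0.88 on the log2 scale (adjusted p = 3.88e-07). The double genotype was thus at 53.7% of its *Ldh* wild-type counterpart among heterozygotes and at 54.7% among mutants, and the test of the difference between the pairs did not pass (0.03 on the log2 scale, adjusted p = 0.937, edgeR over all 12 libraries). *Ldh* itself was near 0 only in double mutants, and whether the level of *Best2* depends on that of *Ldh* was not tested.

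The gene beyond it, *Mdr65*, which encodes an ABC transporter of the multidrug resistance family, was at 24.7, 25.2 and 24.2 CPM against 21.3, 19.4 and 20.5 CPM. It passed with a log2 fold change of -0.30 (SE 0.0563, adjusted p = 0.0336), and did not pass without replicate 2 (adjusted p = 0.0583). In the mutants *Mdr65* had a log2 fold change of 0.16 that did not pass (adjusted p = 0.0682), and the pairs differed (0.45 on the log2 scale, adjusted p = 0.00301). The 3 further tested genes on that side, *CG10226*, *CG42714* and *BG642312*, did not pass (adjusted p between 0.205 and 0.777). *CG10163*, between *Best2* and *Ldh*, was at 0 to 0.214 CPM in the 6 libraries, and the 6 genes on the other side were at 0 to 0.124 CPM, so none of these was tested.

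**Figure D2:**
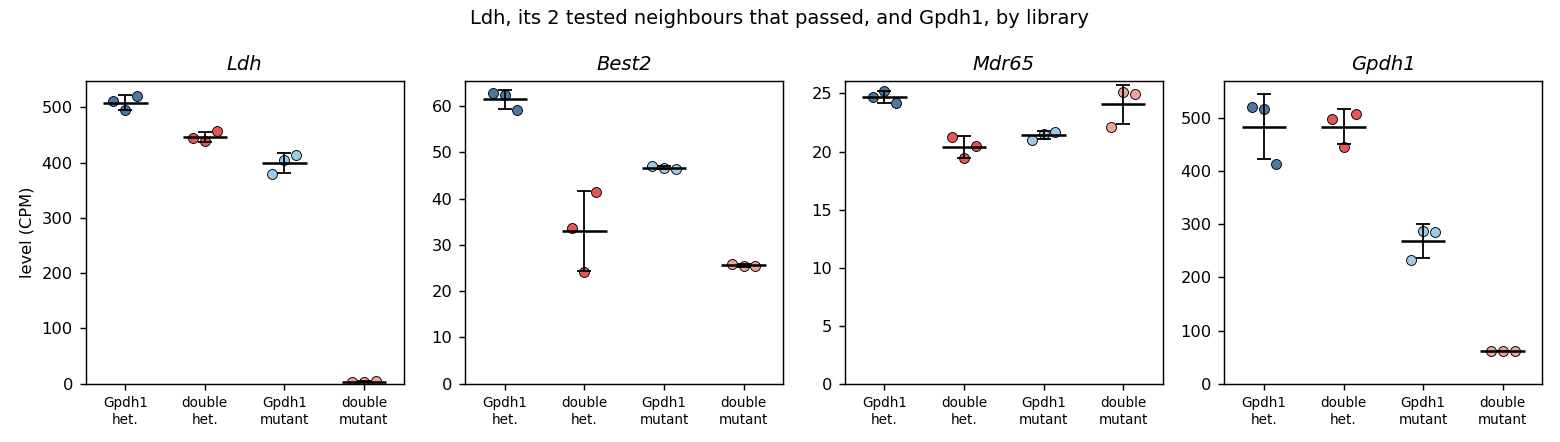
Level in CPM of *Ldh*, *Best2*, *Mdr65* and *Gpdh1* in every library of the 4 genotypes, with points for libraries, a bar for the mean and whiskers for 1 SD (n = 3). *Best2* was lower in both double genotypes (33.0 and 25.6 CPM) than in their *Ldh* wild-type counterparts (61.5 and 46.7 CPM), while *Ldh* was near 0 only in double mutants.

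Of the called genes, 13 passed the test with any 1 of the 6 libraries left out, a set defined after the values were seen. In the double heterozygotes 8 were higher and 5 were lower, and 8 of the 13 (61.5%) lie on arm 3R against 25.1% of the genes tested. *CG31219*, with a serine protease synonym in the reference table, was at 0.0898, 0.201 and 0.129 CPM in the *Gpdh1* heterozygotes and at 11.4, 11.0 and 12.0 CPM in the double heterozygotes. Its log2 fold change of 6.30 (SE 0.19, adjusted p = 0.0003) had the smallest adjusted p of all genes tested. In the mutants it went from 0.113 ± 0.0516 CPM to 16.1 ± 0.381 CPM (SD, n = 3 each), so that its transcript was near the floor in all 6 libraries without a mutant *Ldh* allele and above 10 CPM in all 6 with at least 1. Its annotated span meets that of *CG6184*, which had a log2 fold change of 0.19 (adjusted p = 0.530).

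*mthl8*, a receptor gene of the Methuselah-like family near the tip of 3L, was at 0.135, 0.151 and 0 CPM against 5.56, 4.91 and 4.98 CPM (log2 fold change 5.71, SE 0.417, adjusted p = 0.00586). Its level was 0.256 ± 0.133 CPM in *Gpdh1* mutants and 13.9 ± 0.988 CPM in double mutants (SD, n = 3 each). *CG4783*, on 3R, was at 0.359, 0.403 and 0.343 CPM against 4.27, 5.89 and 5.59 CPM (log2 fold change 3.80, SE 0.203, adjusted p = 0.0021), and at 0.354 ± 0.134 CPM against 29.7 ± 2.0 CPM in the mutants. It lies inside the span of *Hs6st*, whose own log2 fold change was 0.10 (adjusted p = 0.485). In these genes both genotypes without a mutant *Ldh* allele were near 0, the double heterozygotes were intermediate and the double mutants were highest. This order held for *CG31219*, *mthl8* and *CG4783* alike. Double heterozygotes and double mutants also differ at *Gpdh1* and were not compared by a test. The difference between the pairs passed for *CG4783* (2.56 on the log2 scale, adjusted p = 0.000906, edgeR over all 12 libraries). It did not pass for *CG31219* (0.77, adjusted p = 0.425) or *mthl8* (0.02, adjusted p = 0.982).

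*CG31436* and *CG11893*, members of the ecdysteroid kinase-like family on 3R, also rose. *CG31436* was at 5.53, 6.85 and 6.99 CPM against 20.1, 24.8 and 20.02 CPM (log2 fold change 1.72, adjusted p = 0.0069), and *CG11893* was at 7.46, 5.84 and 8.19 CPM against 30.9, 28.6 and 27.5 CPM (1.99, adjusted p = 0.00404). *Muc55B*, which encodes a mucin, was at 8.90, 8.81 and 9.78 CPM against 31.4, 34.0 and 28.4 CPM (1.75, adjusted p = 0.00166), and the remaining higher genes were *CG5892* (2.83) and *CG5770* (2.60). *Muc55B* and *CG11893* were higher still in the *Gpdh1* mutants (40.5 and 172 CPM) and highest in the double mutants (320 and 438 CPM).

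Of the 5 lower genes, *GILT3* encodes a lysosomal thiol reductase of the GILT family. It was at 11.6, 12.5 and 12.4 CPM against 1.87, 1.83 and 1.55 CPM (log2 fold change -2.82, SE 0.102, adjusted p = 0.000464), and at 20.7 ± 2.63 CPM against 1.55 ± 0.122 CPM in the mutants (SD, n = 3 each). *Acsx1L*, of the acyl-CoA synthetase family, was at 34.6, 26.2 and 24.4 CPM against 4.11, 2.89 and 3.91 CPM (-2.99, adjusted p = 0.00404). *CG4860*, with the synonym ACADS of short-chain acyl-CoA dehydrogenase in the reference table, was at 50.1, 52.0 and 44.1 CPM against 22.9, 23.4 and 23.5 CPM (-1.09, adjusted p = 0.0042). The cytochrome P450 gene *Cyp28d1* was at 77.9, 75.1 and 74.2 CPM against 33.3, 32.7 and 35.4 CPM (-1.18, adjusted p = 0.00166). *CG1304*, a serine protease gene on X, was at 5.93, 8.31 and 7.76 CPM against 0.622, 0.380 and 0.387 CPM (-3.99, adjusted p = 0.00344). In the mutants 11 of the 13 genes were called in the same direction, where 4.37% of all genes were called higher and 6.75% lower. The exceptions were *Cyp28d1* (log2 fold change -0.73, adjusted p = 0.000111), below the fold limit, and *CG1304* (0.18, adjusted p = 0.569).

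**Figure D3:**
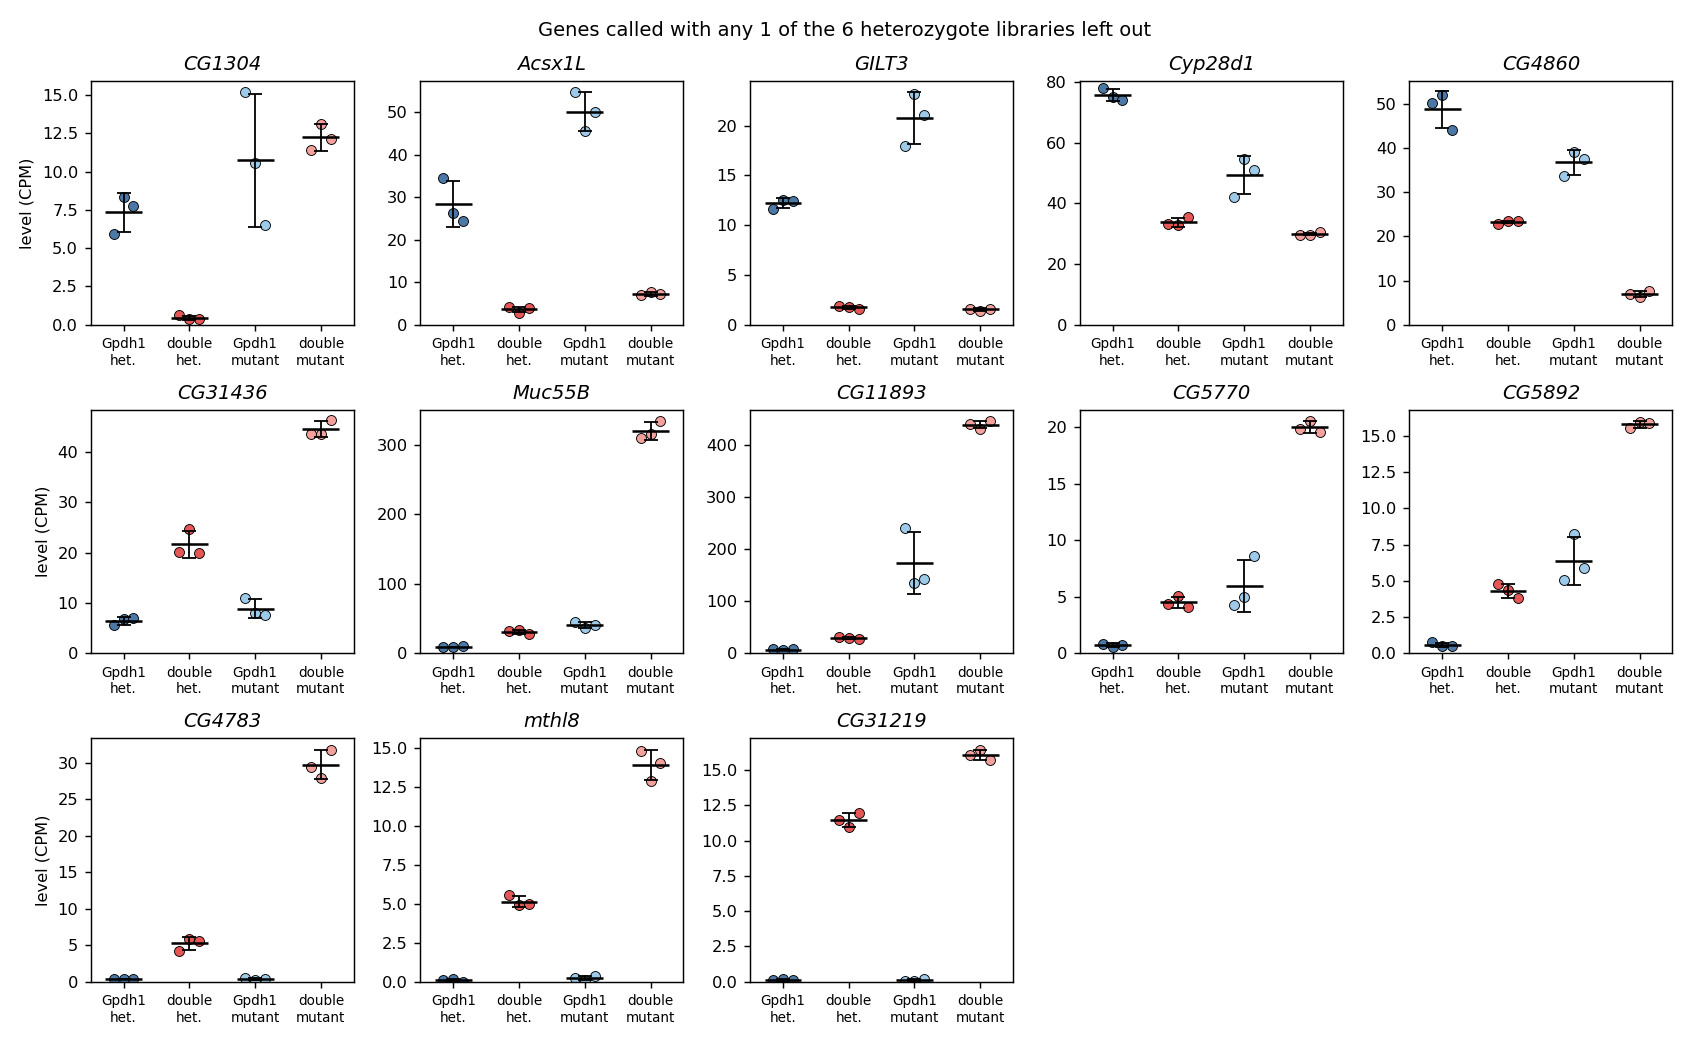
Level in CPM of the 13 genes that were called with any 1 of the 6 heterozygote libraries left out, in every library of the 4 genotypes (points, with mean and 1 SD, n = 3). Only *CG1304* differs between the heterozygotes and does not pass between the mutants.

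The independent pair was then examined for all called genes, since double and *Gpdh1* mutants share no library with the 6 heterozygotes. Of the 75 higher genes, 44 (58.7%, and 9.42% of the 467 genes called higher in the mutants) were also called higher there, against 3.89% of all genes tested in both (4.37% of all genes tested in the mutants), and 3 were called lower. The 3 were *lncRNA:CR44316* (log2 fold changes 4.24 and -7.02), *ich*, a transcription factor gene (1.44 and -1.22), and *CG13360* (1.46 and -1.48), named here after their values were seen. Of the 237 lower genes, 52 (21.9%, and 7.2% of the 722 called lower in the mutants) were also called lower, against 6.57% of all genes (6.75% in the mutants), and 26 (11.0%, and 5.57% of 467) were called higher. The median log2 fold change in the mutants was 1.21 over the 74 higher genes with a value and -0.21 over the 224 lower genes, against 0.00 over all genes.

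Among the 26 genes lower in the double heterozygotes and higher in the double mutants were *CG14572* (log2 fold changes -8.65 and 5.94), *CG14569* (-6.0 and 4.06), *CG14573* (-7.18 and 1.79), *TwdlP* (-3.82 and 1.79), *Edg91* (-2.49 and 1.52) and *Lcp65Ag3* (-1.11 and 1.78). *TwdlP*, *Edg91* and *Lcp65Ag3* encode cuticle proteins. Of all 25 Tweedle genes, 21 were lower and 3 higher between the mutants, at the adjusted p with no fold limit. The 44 genes higher in both pairs included the trypsin genes *lambdaTry* (1.33 and 1.28) and *thetaTry* (1.59 and 1.34), the lysozyme genes *LysD* (1.58 and 2.85) and *LysE* (3.0 and 3.37), *Syt4*, a synaptotagmin (1.0 and 1.52), and *shd*, the ecdysone 20-hydroxylase (1.43 and 1.29). Chromosome 3 held 44.8% of the genes tested, 56.0% of the higher and 57.0% of the lower genes. By arm, 3R held 38.7% of the higher genes against 25.1% of those tested, 3L held 30.8% of the lower genes against 19.7%, and X held 8.02% of the lower genes against 16.1%.

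**Figure D4:**
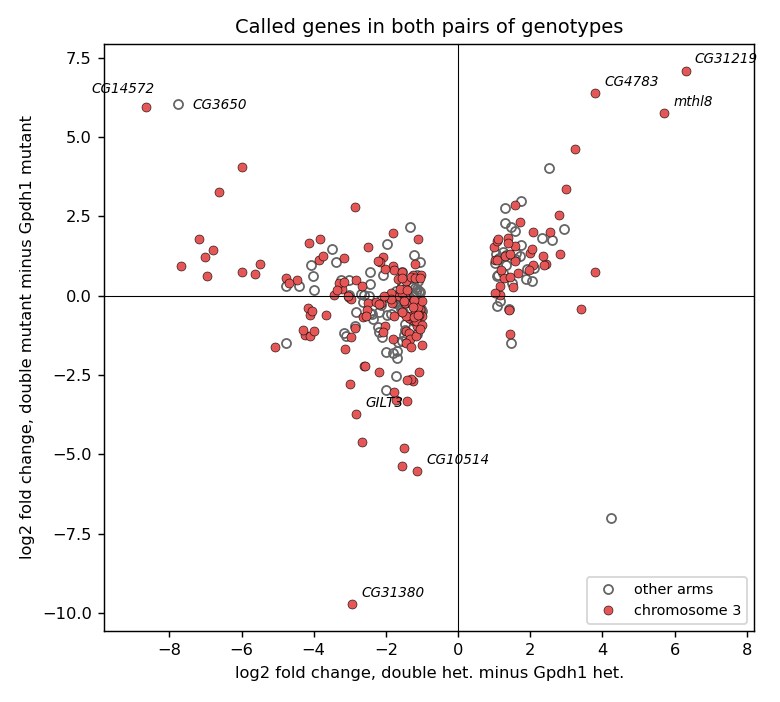
Log2 fold change between the mutants (vertical axis) against that between the heterozygotes (horizontal axis) for the called genes with a value in both, with genes of chromosome 3 filled. *CG31219*, *mthl8* and *CG4783* were higher in both pairs, *GILT3*, *CG10514* and *CG31380* lower in both, and *CG14572* and *CG3650* lower between heterozygotes and higher between mutants.

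Of the genes called lower, 7 had a double mutant mean under 10% of the *Gpdh1* mutant mean where the latter was at least 1 CPM, a selection also made after the values were seen. Of these, 6 lie on 3R, which holds 25.1% of the tested genes, and 1 on 3L. Without the call between heterozygotes the same selection held 22 genes, 12 on 3R and 4 on 3L. In the 15 not called lower, the double heterozygotes had a median of 60.2% of the *Gpdh1* heterozygote level, and 12 of the 15 were below it. *CG10514*, an ecdysteroid kinase-like gene on 3R, was at 247, 251 and 261 CPM in the *Gpdh1* heterozygotes and at 141, 105 and 106 CPM in the double heterozygotes, or 46.4% of the former (log2 fold change -1.13, SE 0.127, adjusted p = 0.0153). It was at 171, 153 and 132 CPM in *Gpdh1* mutants and at 3.77, 3.0 and 3.12 CPM in double mutants. *CG11313*, on 3R, was at 20.4, 19.7 and 21.5 CPM, then 9.17, 5.67 and 7.17 CPM (35.7%), while the double mutants were at 3.53% of the *Gpdh1* mutants. *CG9988* (38.1% and 9.88%), *Ir76a*, an ionotropic receptor gene (34.2% and 2.32%), *CG44215* (15.9% and 3.88%), *GILT3* (14.3% and 7.48%) and *CG31380* (13.2%, and 0 CPM in all 3 double mutant libraries) completed the set.

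The genes with the largest decreases formed a different set. By the naming rule (called, groups not overlapping, at least 5 CPM in the higher group) 169 genes qualified as lower. The 12 most decreased had log2 fold changes from -8.65 to -4.77, and 10 of them lie on 3L. *CG14564* was at 68.0, 238 and 118 CPM in the *Gpdh1* heterozygotes and at 0.995, 0.152 and 2.23 CPM in the double heterozygotes (log2 fold change -7.01, SE 0.875, adjusted p = 0.0166). *CG14326* was at 15.9, 110 and 41.1 CPM against 0.124, 0.304 and 0.387 CPM (-7.67, adjusted p = 0.0181), *CG14573* at 23.9, 111 and 47.7 CPM against 0.332, 0.609 and 0.301 CPM (-7.18, adjusted p = 0.0153), and *CG32266* at 48.8, 175 and 73.0 CPM against 1.99, 2.55 and 2.19 CPM (-5.47, adjusted p = 0.0153). *Lcp9*, a larval cuticle protein gene, was at 33.2, 130 and 65.4 CPM against 3.28, 0.570 and 4.68 CPM (-4.78, adjusted p = 0.0266). Replicate 2 was the highest of the *Gpdh1* heterozygotes in each of these, and it was so in 173 of the 237 called lower genes (73.0%) against 35.2% of all genes tested. Without that library 83 genes were called lower. The other members of the 12 were *CG14572*, *CG14568*, *CG4229*, *CG14569*, *CG34268*, *CG14096* and *CG34267*, for which the sources used here give no function. *CG14572* was at 2.83, 30.8 and 5.45 CPM in the *Gpdh1* heterozygotes. It lost the call without double heterozygote replicate 2 (adjusted p = 0.101).

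By the same naming rule 56 genes qualified as higher. Beside *CG31219*, *mthl8*, *CG4783* and *LysE*, the 12 most increased included *CG12522* on 3L, at 0.404, 0.403 and 1.29 CPM against 6.30, 7.26 and 7.05 CPM (log2 fold change 3.24, SE 0.393, adjusted p = 0.0158), and *CG31446* on 3R, at 4.27, 1.81 and 4.50 CPM against 19.7, 21.1 and 17.9 CPM (2.44, adjusted p = 0.0157). *CG9682* was at 13.7, 4.73 and 15.9 CPM against 73.1, 52.1 and 55.6 CPM (2.37, adjusted p = 0.0294). The lowest double heterozygote was above the highest *Gpdh1* heterozygote by several times in each of these. *CG17974* (2.93), *CG8012* (2.81), *CG34278* (2.56), *CG15741* (2.52) and *CG6484* (2.33) completed the 12. *CG15741* lost the call without double heterozygote replicate 2 (adjusted p = 0.0594). The sources used here give no function for these genes.

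In 6 genes the double heterozygotes had between 0 and 2 counts in all and every *Gpdh1* heterozygote library had at least 10, and no gene had the opposite pattern. *CG14572* had 63, 611 and 127 counts against 0, 2 and 0 (ratio 413 after scaling for depth, with a 95% exact counting interval from 114 to 3412). It passed in 2 of the 6 tests with 1 library left out, and not without double heterozygote replicate 2. *CG3650*, a serine protease gene, had 11, 33 and 31 counts against 0, 0 and 0. The exact interval of its ratio started at 20.4. At a floor of 3 counts over the group the ratio was 25.8, before the counting error of the *Gpdh1* heterozygotes. *CG3650* had 62, 48 and 77 counts in the double mutants. *CG34248* (ratio 121, interval 21.2 to 4800), *CG14153* (52.5, 14.2 to 440), *CG34448* (47.4, 8.09 to 1912) and *CG12998* (30.9, 8.19 to 261) made up the rest. These intervals cover counting error only.

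Some called genes were neighbours. Among tested genes in chromosomal order there were 7 runs of 3 or more neighbours called in the same direction, with 25 genes in all, 4 runs lower and 3 higher. On 3L, *Lcp65Ag3*, *Cpr65Au*, *Lcp65Ag2*, *Lcp65Ag1*, *Lcp65Af* and *Lcp65Ae*, a cluster of larval cuticle genes between 6130386 and 6138118, were lower, with log2 fold changes from -2.96 to -1.11. Also lower on 3L were *CG14570*, *CG14569*, *CG14568* and *CG14573* (21729675 to 21734788, -7.18 to -4.25), *CG14096*, *CG32214* and the next gene (19466567 to 19472228, -5.07 to -4.09), and *CG34248*, *CG13067* and *CG13066* (16270369 to 16273608, -6.62 to -4.12). The higher runs were *LysD*, *LysE* and *LysP* on 3L, digestive lysozyme genes with log2 fold changes from 1.58 to 3.41, and 2 runs on 2R, *CG5770* with *CG5767* and *CG34005* (up to 2.60) and *MFS1* with *CG30265* and *CG9825* (1.23 to 2.11). *LysE* was at 26.5, 13.4 and 16.2 CPM against 154, 128 and 172 CPM. The lysozyme genes are near-identical copies inside the span of *mwh*, so the split of reads among them is uncertain, and the *Lcp65A* genes are also close copies.

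Of the lists examined, cuticle genes gave the most genes past the test. Of 76 tested genes of RR-type cuticle proteins, which carry the chitin-binding Rebers-Riddiford domain, 26 were lower and 1 was higher, against 5.38% and 2.77% of all genes (shares at adjusted p 0.05 with no fold limit, as for all lists below). Their median log2 fold change was -2.03, against 0.01 over all genes, and in 60 of them every double heterozygote was below every *Gpdh1* heterozygote (18.5% of all genes). *Lcp65Ag2* was at 1103, 1385 and 990 CPM against 270, 317 and 419 CPM (log2 fold change -1.81, SE 0.204, adjusted p = 0.0153). *Cpr47Eg* was at 1237, 2686 and 1457 CPM against 119, 172 and 284 CPM (-3.24, adjusted p = 0.0181), *Cpr60D* at 194, 445 and 280 CPM against 46.8, 55.0 and 69.6 CPM (-2.44, adjusted p = 0.0181), and *Cpr31A* at 90.7, 131 and 76.9 CPM against 35.0, 38.9 and 39.1 CPM (-1.42, adjusted p = 0.0181). The exception, *Pcp*, a pupal cuticle protein gene, was at 2.47, 2.62 and 2.66 CPM against 3.94, 4.30 and 4.25 CPM (0.67, adjusted p = 0.0225), and it lies in the span of *Gart*, which had a log2 fold change of -0.22 (adjusted p = 0.0979).

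The count of RR-type genes lower depended on single libraries. It was 42 of 77 without double heterozygote replicate 2 (median -1.70, background 5.24% lower and 1.64% higher), it was 0 without *Gpdh1* heterozygote replicate 3 and also without double heterozygote replicate 1, it was 12 and 9 without *Gpdh1* heterozygote replicates 1 and 2, and it was 53 of 76 when the spread was taken from all 12 libraries. In the mutants the same list split, with 20 genes higher and 43 lower in double mutants (background 21.9% and 24.4%). The direction seen between heterozygotes was therefore not shared by all members in the second pair. Tracheal cells also make cuticle, and the summed level of 7 tracheal markers was 6643 to 8467 CPM in the *Gpdh1* heterozygotes and 1853 to 5163 CPM in the double heterozygotes, although none of the 7 passed. Their part in the cuticle differences was not tested.

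Of 25 Tweedle genes, a family of secreted cuticle proteins, 4 were lower and none was higher, with a median of -1.73, and 9 were lower without replicate 2. *Twdlalpha* was at 82.6, 155 and 74.3 CPM against 15.7, 14.9 and 20.7 CPM (log2 fold change -2.62, SE 0.321, adjusted p = 0.0158). *TwdlP* was at 59.3, 257 and 125 CPM against 9.79, 11.6 and 10.2 CPM (-3.82, adjusted p = 0.0188), *TwdlN* at 280, 1011 and 489 CPM against 17.0, 18.98 and 46.2 CPM (-4.45, adjusted p = 0.0199), and *TwdlX* at 335, 391 and 312 CPM against 225, 213 and 254 CPM (-0.60, adjusted p = 0.0338). *TwdlX* did not pass without replicate 2 (adjusted p = 0.055). *TwdlB* was at 983, 1934 and 1285 CPM against 44.4, 1.86 and 183 CPM, and *TwdlK* at 772, 1465 and 921 CPM against 23.4, 0.304 and 138 CPM. Every double heterozygote was below the other group, and the 3 were far apart. Their adjusted p values were 0.106 and 0.139, and 0.0413 and 0.0553 without replicate 2. Between the mutants 21 of the 25 Tweedle genes were lower and 3 higher, against 24.4% and 21.9% of all genes.

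The order of the double heterozygotes, replicate 3 above 1 above 2, held in 22 of 25 Tweedle (88%), 47 of 76 RR-type (61.8%) and 16 of 27 chitin genes (59.3%), against 19.7% of all genes. It also held in 8 of 18 tanning genes (44.4%) and 5 of 15 Osiris genes (33.3%). Outside the cuticle lists it held in 9 of 13 muscle markers (69.2%) and 7 of 12 fatty acid synthesis genes (58.3%). Smaller lists with it were glue proteins (3 of 5), larval serum and fat body proteins (3 of 6) and salivary gland markers (3 of 3). It held in 0 of 88 ribosomal protein genes and 0 of 26 gut serine proteases. The *Gpdh1* heterozygotes had replicate 2 highest in 52 of the 76 RR-type genes (68.4%, against 35.2% of all genes). The genes of the Osiris family, transmembrane proteins expressed in cuticle-forming epithelia, showed the departure of replicate 2 alone. None of the 15 tested passed, with a median of -0.29, and *Osi6* was at 3686, 4371 and 4116 CPM against 4668, 1662 and 3769 CPM. Replicate 2 was the lowest double heterozygote in 14 of the 15 (37.2% of all genes), and without it the median was 0.04 and again none passed. In the mutants all 15 were lower (24.4% of all genes), so this family was near level between heterozygotes apart from 1 library and lower in double mutants.

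**Figure D5:**
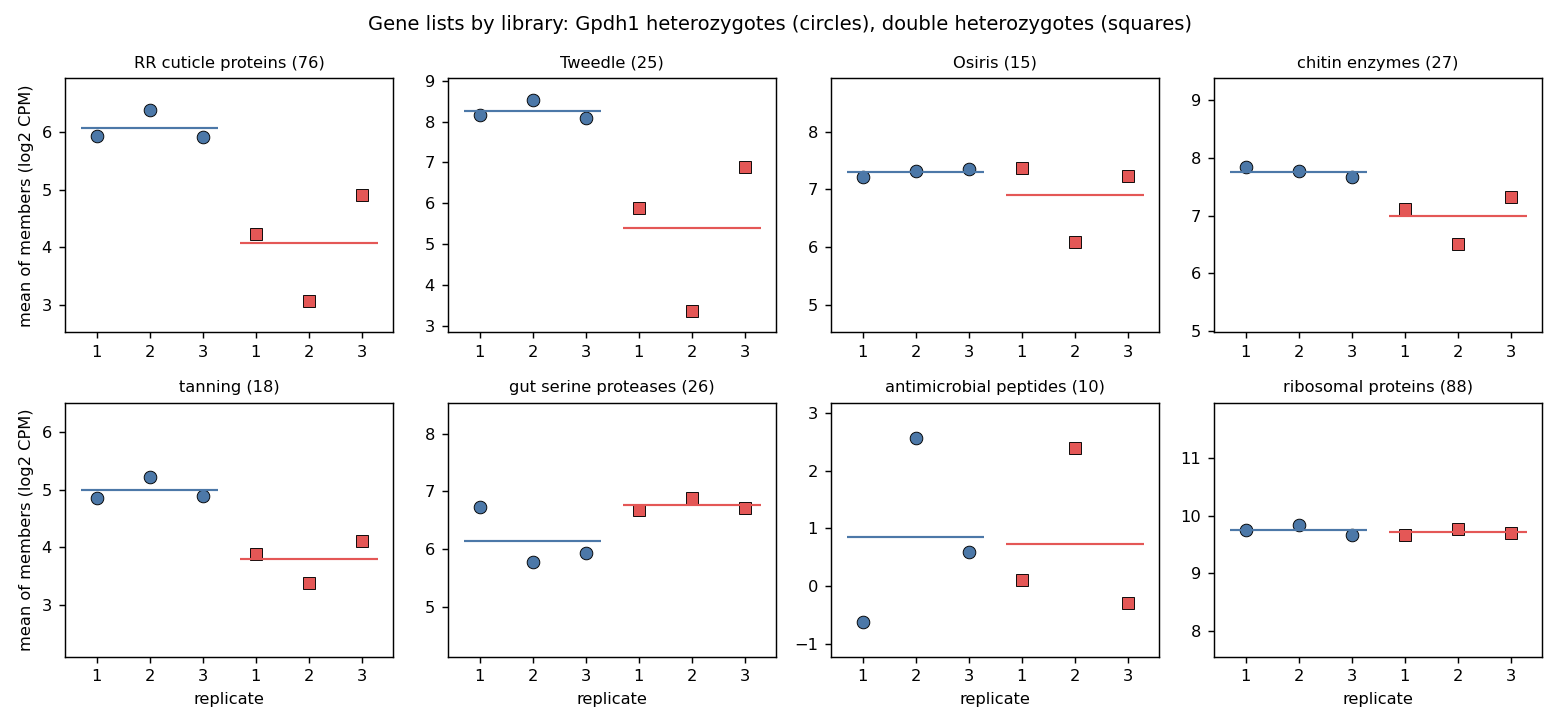
Mean log2 CPM over the tested members of 8 gene lists in each *Gpdh1* heterozygote (circles) and double heterozygote (squares), with a line at each group mean and the number of genes in the panel title. Double heterozygote replicate 2 lies lowest in the 5 cuticle panels (3.07 for RR-type and 3.37 for Tweedle genes) and highest of its group in antimicrobial peptides (2.40), while ribosomal protein genes stay between 9.66 and 9.84 in all 6 libraries.

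Among 27 genes of chitin synthesis, modification and breakdown, 8 were lower (14 without replicate 2) and none was higher, with a median of -0.59. The growth-factor-like chitinase relatives *Idgf1*, *Idgf2*, *Idgf3*, *Idgf4*, *Idgf5* and *Idgf6* were 6 of the 8. *Idgf2* was at 232, 269 and 238 CPM against 148, 152 and 162 CPM (-0.70, SE 0.0839, adjusted p = 0.0156), and *Idgf3* at 172, 179 and 161 CPM against 113, 119 and 118 CPM (-0.57, adjusted p = 0.0156). These are secreted proteins and not chitin-making enzymes. *mmy*, which makes the chitin precursor UDP-N-acetylglucosamine, was at 347, 422 and 294 CPM against 108, 87.0 and 167 CPM (-1.57, adjusted p = 0.028), and the deacetylase gene *Cda9* was lower by -0.49. The chitin deacetylases *serp* and *verm* had log2 fold changes of -1.40 and -1.37 that did not pass (adjusted p = 0.110 and 0.111). Between the mutants 18 of the 27 chitin genes were lower and 3 higher, against 24.4% and 21.9% of all genes.

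Of 18 genes of cuticle tanning, 6 were lower and none was higher, and all 18 had a negative log2 fold change (median -0.94). *Ddc*, the dopa decarboxylase, was at 72.1, 98.2 and 61.9 CPM against 11.8, 9.36 and 24.7 CPM (-2.36, SE 0.397, adjusted p = 0.0268). *ple*, the tyrosine hydroxylase of the preceding step, was at 57.1, 126 and 62.5 CPM against 22.5, 18.7 and 27.3 CPM (-1.86, adjusted p = 0.031), and lost the call without replicate 2 (adjusted p = 0.055). *e*, which makes N-beta-alanyldopamine, had -3.31 on the log2 scale (adjusted p = 0.0283, and 0.0526 without replicate 2), and the yellow-family genes *yellow-b*, *yellow-d2* and *yellow-e2* had log2 fold changes of -1.85, -1.47 and -1.45. No chitin, tanning or Tweedle gene passed as lower without *Gpdh1* heterozygote replicate 3, and none without double heterozygote replicate 1. Between the mutants 9 of 17 tested tanning genes were lower and 1 higher, against 24.4% and 21.9% of all genes.

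The ecdysone lists had median log2 fold changes of 0.26 (synthesis and inactivation) and 0.01 (receptor and response). Single members differed by as much as the medians of the cuticle lists, but few passed the test. Of 11 tested genes of ecdysone synthesis and inactivation, *shd* rose, at 3.41, 3.12 and 4.25 CPM against 7.76, 13.3 and 8.38 CPM (log2 fold change 1.43, SE 0.248, adjusted p = 0.0285). *ouib*, a transcription factor of the prothoracic gland, fell from a low level, at 1.03, 1.06 and 1.16 CPM against 0.622, 0.494 and 0.644 CPM (-0.90, adjusted p = 0.039, and 0.0902 without replicate 2). Of the enzymes that act before *shd*, *spok* (0.68), *sad* (0.74), *sro* (1.10) and *dib* (0.93) were not called (adjusted p between 0.0879 and 0.148). *Cyp18a1*, which inactivates ecdysone, was at 120, 99.7 and 84.8 CPM against 22.9, 9.17 and 46.8 CPM (-1.97, adjusted p = 0.0756, and 0.0489 without replicate 2).

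Of 23 tested receptor and response genes, 2 were lower and none was higher. *EcR*, the ecdysone receptor, was at 41.2, 38.7 and 40.6 CPM against 30.2, 27.1 and 31.6 CPM (-0.46, SE 0.0748, adjusted p = 0.0243), and *Cth*, an ecdysone-induced enzyme gene of cysteine synthesis, had a log2 fold change of -0.44 (adjusted p = 0.0211). The early gene *Eip74EF* was at 112, 99.8 and 75.0 CPM against 20.7, 5.82 and 42.4 CPM (-2.08, adjusted p = 0.093, and 0.0492 without replicate 2). *ftz-f1*, a nuclear receptor gene of the falling phase of the pulse, was at 214, 177 and 166 CPM against 81.7, 13.8 and 127 CPM (-1.34, adjusted p = 0.247). *Cyp18a1*, *Eip74EF* and *ftz-f1* had the library order replicate 3 above 1 above 2. *usp*, *br*, *Hr4*, *Eip75B* and *Hr3* had log2 fold changes between -0.04 and 0.18, none past the test. Whether moulting phase accounts for the cuticle differences was not tested, and phase and genotype cannot be told apart with 3 pools a group.

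None of 9 tested genes on the NADH shuttle list, which also holds mitochondrial partners of the cytosolic enzymes, passed. *Gpo1*, the mitochondrial glycerol-3-phosphate oxidase that pairs with *Gpdh1*, was at 200, 243 and 210 CPM against 278, 370 and 290 CPM. Its groups did not overlap, with a log2 fold change of 0.50 (SE 0.135, adjusted p = 0.0699). *Gpdh3*, *Mdh1*, *Mdh2*, *Got1*, *Got2* and *Idh* had log2 fold changes between -0.19 and 0.20 (adjusted p between 0.157 and 0.812). None of 12 glycolytic, 7 pentose phosphate, 71 respiratory chain or 88 ribosomal protein genes passed, with medians between -0.09 and 0.06. The largest of the glycolytic differences was that of *Hex-C*, the fat body hexokinase, at 77.7, 109 and 80.6 CPM against 62.0, 56.4 and 66.0 CPM (-0.56, adjusted p = 0.0668).

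Antimicrobial peptides and Bomanins, short immune peptides induced through Toll, did not pass in any of 10 and 5 tested genes. They varied within groups instead. *Drs* was at 6.60, 103 and 14.9 CPM in the *Gpdh1* heterozygotes and at 3.11, 13.8 and 1.07 CPM in the double heterozygotes, and *BomS2* at 0, 37.9 and 0.686 CPM and at 0.290, 8.94 and 0.301 CPM. Replicate 2 was the highest of its group in all 10 antimicrobial peptide and all 5 Bomanin genes, in both genotypes. The summed level of the 25 antimicrobial peptide genes was 13.9 to 169 CPM in the *Gpdh1* heterozygotes and 10.6 to 72.1 CPM in the double heterozygotes. *PGRP-SD*, a peptidoglycan recognition protein, fell without such a spread, at 8.36, 9.42 and 8.45 CPM against 2.86, 3.0 and 3.87 CPM (-1.45, SE 0.141, adjusted p = 0.015), and was the only member of 9 tested to pass. *TotA*, a stress peptide gene, was at 5.57, 4.98 and 4.03 CPM against 1.82, 0.570 and 1.72 CPM (-1.85, adjusted p = 0.041).

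In the gut lists, *Vha100-4*, a subunit of the proton pump, was at 7.37, 4.33 and 6.26 CPM against 24.5, 28.2 and 24.7 CPM (log2 fold change 2.08, SE 0.183, adjusted p = 0.0127). *thetaTry* was at 10.2, 4.98 and 4.98 CPM against 19.4, 20.5 and 21.8 CPM (1.59, adjusted p = 0.029). Those 2 were the only midgut markers of 9 to pass. With *lambdaTry*, 2 of 26 gut serine proteases rose (7.69%, against 2.77% of all genes). *lambdaTry* lost the call without double heterozygote replicate 2 (adjusted p = 0.0696). The protease count was 16 without *Gpdh1* heterozygote replicate 1, a fit in which 461 of 10651 genes passed in either direction. In that library *Jon99Fi* was at 246 CPM, against 64.4 and 107 CPM in the other libraries of its group. It was at 423 to 513 CPM in the double heterozygotes. *Gpdh1* heterozygote replicate 1 thus lay nearest to the double heterozygotes for these digestive genes. The summed midgut markers were at 343 to 494 CPM and 511 to 568 CPM, with no overlap, and their part in the protease differences was not tested. *Mal-B2*, a maltase gene, was the 1 gene of carbohydrate digestion to pass (-0.70, adjusted p = 0.0156).

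Of 68 cytochrome P450 genes 6 were lower (8.82%) and 3 higher (4.41%), against 5.38% and 2.77% of all genes. Of 34 glutathione S-transferase genes 2 were higher (5.88%). Of 29 UDP-glycosyltransferase genes 5 were higher (17.2%) and 4 lower (13.8%). Without double heterozygote replicate 2 the counts were 6 lower and 0 higher, 2 higher, and 4 higher and 2 lower (background 5.24% lower and 1.64% higher). Beside *Cyp28d1*, *Cyp4aa1* was at 15.9, 16.6 and 12.8 CPM against 4.23, 4.30 and 7.05 CPM (-1.56, adjusted p = 0.0188). *Ugt37C2* rose from 6.06, 5.19 and 4.89 CPM to 12.4, 12.0 and 10.5 CPM (1.09, adjusted p = 0.0153), and *GstD9* had a log2 fold change of 0.70 (adjusted p = 0.023). In the Malpighian tubule list *Uro*, the urate oxidase gene, was at 362, 329 and 294 CPM against 206, 123 and 177 CPM (-0.98, SE 0.196, adjusted p = 0.0372), and *Irk1*, a potassium channel gene, had a log2 fold change of 0.78 (adjusted p = 0.0181). *Best2* is the third of 7 markers there that passed. The tubule markers *Lkr*, *ZnT35C*, *Oatp58Dc* and *Oatp58Db* did not pass (log2 fold changes between -0.46 and 0.10). None of the markers of muscle (13 tested), neurons (11), imaginal discs (10), trachea (7), germ line (7), neuroblasts (6) or fat body (5) passed, and 1 of 8 hemocyte markers did, *NimC1* (-0.49, adjusted p = 0.0356, and 0.0716 without replicate 2). The cell cycle genes *E2f1* (0.40) and *CycE* (0.47) were the 2 of 27 that rose, and *CycE* did not pass without replicate 2 (adjusted p = 0.0823).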

How the data were processed

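RNA from pooled larvae was sequenced in 12 libraries, 3 for each of 4 genotypes. The deposited files hold counts of reads per gene, with no normalization, for 17185 FlyBase gene IDs. Per the labels, the submitters' processing notes name bcl2fastq 2.20.0.422, cutadapt 1.12, HISAT2 2.1.0 and HTSeq 0.9.0. The study's methods describe a different quantification, and the genome build and strand setting of these counts are not given in the sources used here. The 5 HTSeq summary lines were left out of library sizes, and reads aligned to several places, 8.06 to 14.7% per library, were not counted, so near-identical gene copies are measured incompletely. Symbols and coordinates were matched by ID to the BDGP6.54 annotation (17059 IDs).

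Genes passing edgeR's filter (minimum count 10) were scaled by TMM and tested with the edgeR 4.0.16 quasi-likelihood test in R 4.3.3, on the 6 heterozygote libraries alone, with Benjamini-Hochberg adjustment and no covariate. Called genes combined an adjusted p below 0.05 with an absolute log2 fold change above 1. Gene lists were counted at the adjusted p alone. Mutant libraries were fitted in the same way, and the difference between the pairs was tested over all 12 libraries. CPM values use TMM factors over all 12 libraries, and list means use log2 CPM with a prior count of 2. Tested on simulated data of 10438 genes for the heterozygote comparison, the procedure recovered 88.6% of 88 genes changed by 1.5 on the log2 scale. It recovered 96.4% of 110 genes changed by 2, and the run gave 11 false calls. Whether these values hold for the 6 libraries, whose spread was 0.212 among double and 0.141 among *Gpdh1* heterozygotes, was not tested. Alternatives were RLE size factors, DESeq2 1.42.0, other count filters, a fit over all 12 libraries, a replicate block and leaving out each library. Genes were named by rank of fold change (12 a direction, groups not overlapping, at least 5 CPM in the higher group), by list (up to 4 with the smallest p), by role in the smaller lists, by position beside *Ldh* or in runs, and by counts of 0 to 3 in 1 group only. Members and lists were chosen with earlier results of these data known. The study calls the 3 samples of a group biological replicates, and the labels do not say how pools were separated, so p-values measure only the spread between these samples.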

Additional observations from a re-analysis of the deposited data

Results flagged for a closer look

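For 17 named genes the difference between the double and the *Gpdh1* genotype was not the same in heterozygotes and in mutants. The values that follow are the mutant log2 fold change minus the heterozygote one, each with its adjusted p from the edgeR test of that difference over all 12 libraries.

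*Ldh* had a difference of -6.48 (adjusted p = 2.65e-11), with log2 fold changes of -0.21 in heterozygotes and -6.67 in mutants. *Gpdh1* had -2.13 (adjusted p = 1.9e-05), with -0.02 in heterozygotes and -2.13 in mutants, although both mutant groups carry the same labelled *Gpdh1* alleles. *Gpdh1* was at 268 ± 31.3 CPM in *Gpdh1* mutants and at 61.4 ± 0.53 CPM in double mutants (SD, n = 3 each).

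Among the most increased genes, *CG4783* rose by more in mutants (2.56, adjusted p = 0.000906), and *CG31446* (-1.45, adjusted p = 0.00758) and *CG9682* (-1.43, adjusted p = 0.0409) had a smaller log2 fold change there. All 12 of the most decreased genes differed, against 2781 of 10880 genes tested (25.6%), and they were picked on the heterozygote fold change that enters this difference. *CG14572* (14.59, adjusted p = 0.000511), *CG14569* (10.04, adjusted p = 0.000349) and *CG14573* (8.95, adjusted p = 0.000182) had the largest differences. *CG14326* had 8.59 (adjusted p = 0.000481), *CG14564* 8.23 (adjusted p = 0.000113), *CG4229* 8.23 (adjusted p = 0.00054) and *CG14568* 7.56 (adjusted p = 0.000227). *CG34268* had 6.71 (adjusted p = 0.000303), *CG32266* 6.45 (adjusted p = 9.84e-05) and *CG34267* 5.31 (adjusted p = 0.00105). *CG14096* (3.44, adjusted p = 0.00948) and *Lcp9* (3.27, adjusted p = 0.0176) were lower in both pairs and by less in mutants, with log2 fold changes of -1.63 and -1.5 there.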

How the results depend on the processing

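The 859 genes past the adjusted p, with 75 called higher and 237 lower, depended on which libraries set the spread. DESeq2 gave 1438 genes past the adjusted p, with 132 higher and 381 lower, and a fit over all 12 libraries gave 2874, with 165 and 458. Leaving out 1 library gave 17 to 730 genes past the adjusted p, 10 to 92 called higher and 7 to 276 called lower, the lowest without double heterozygote replicate 1 and without *Gpdh1* heterozygote replicate 3. With no fold limit there were 292 higher and 567 lower genes, and in the mutants 2344 and 2610 in place of 467 and 722. Leaving out 1 mutant library gave 4057 to 4807 genes past the adjusted p, against 4954. RLE size factors, no count filter and at least 10 counts in every library kept the 3 counts within 1.5 times.

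The replicate numbers did not pair the samples. The correlations of deviations between same-numbered samples were 0.151, 0.112 and -0.222, and *Gpdh1* heterozygote replicate 1 correlated best with double heterozygote replicate 3 (0.233). With a replicate block 59 genes passed, 15 of them called higher and 39 lower. For the difference between the pairs 2356 genes passed with the block and 2781 without it.

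No named gene that passed reversed its direction under these alternatives. Where the groups did not overlap, leaving out 1 library could not reverse a direction. *Gpdh1*, which did not pass (-0.02), was at 0.04 and 0.03 without *Gpdh1* heterozygote replicates 1 and 2 and at 0.04 without double heterozygote replicate 2. Of the 26 named genes, 7 kept the side of the threshold without *Gpdh1* heterozygote replicate 3, 5 without double heterozygote replicate 1 and 24 without double heterozygote replicate 2. Under at least 10 counts in every library, 12 of the 26 could be tested. The cause of these changes was not tested. Depth limits genes of a few counts, such as those absent from 1 group.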
